A study of Mus musculus with 4 samples.

Results

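The collagen genes and a set of matrix genes typical of fibroblasts were followed in RNA from CD8+ T cells of mouse lung. The set was defined by gene symbol: every gene with a collagen chain symbol (44 genes) and 18 further genes, namely Dcn, Lum, Bgn, Fbn1, Eln, Sparc, Postn, Pdgfra, Pdgfrb, Mgp, Inmt, Has1, Lox, Loxl1, Timp3, Fermt2, Acta2 and Tagln. This gave 62 of the 55401 genes in the tables, each present as 1 row. The rule reads symbols only, but the members were chosen with earlier results of these data known. Cells carrying CD3 and CD8 had been sorted from lungs of C57BL/6J mice of a model named IPF-LC or a model named LC, which the labels do not spell out. Each model was given an isotype antibody, as the control, or an antibody that depletes CD4+ cells. Each of the 4 groups is 1 library, and values are given in a fixed order: first IPF-LC with isotype antibody, then IPF-LC after depletion, then LC with isotype antibody, then LC after depletion. No sex, age, antibody dose, time point or number of mice per library is given in the sources used here. There was thus no replicate error, and differences between libraries carry no p-value.

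Collagens are secreted proteins of 3 chains wound into a triple helix, which assemble outside the cell into fibrils, networks or fine filaments. In the lung, fibroblasts make most of the fibrillar collagen, endothelial and epithelial cells contribute to the basement membrane, and an excess of fibrillar collagen is the hallmark of fibrosis. T cells are not a known main source of these proteins. Proteoglycans such as decorin regulate the spacing of fibrils, lysyl oxidases crosslink collagen and elastin, and matricellular proteins such as SPARC and periostin tune the contact of cells with the matrix.

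The libraries held between 14946569 and 16217672 reads assigned to genes (rounded expected counts), so raw counts of a gene can be set side by side almost directly. CPM below is the count scaled to the effective library size (TMM), and all ratios are log2 of scaled CPM with a prior count of 0.5. Intervals are 95% counting intervals: the reads carry no molecular identifiers and may be PCR copies, so intervals cover counting error only and neither mice nor sorts. The 10 CD8 T cell markers summed to 6198, 5255, 5263 and 5759 CPM, and none of them differed 2-fold in any of the 4 comparisons. Markers of other lung cells were present as well. The fibroblast markers outside the set summed to 48.2, 18.7, 115 and 4.15 CPM.

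The promoter windows of 6 members are shown first, and these members are described singly below. They comprise the 2 collagen IV genes, which are transcribed away from each other from a shared stretch, the most abundant member by reads, a pair of fibrillar collagens, and the member with nearly equal reads in all libraries. The windows come from RefSeq on GRCm38.p6, run from 250 bases before to 50 bases after the start site, and are written 5′ to 3′ on the strand of the gene. The RefSeq table held a window for 45 of the 62 members and for 23 of the 33 described further below. The reads had been placed on another build, GRCm39, per the submitters' processing notes, so these coordinates apply to the sequences only.

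In the collagen IV pair, capitals mark the 78 bases that both windows hold, chr8:11312777-11312854, read on opposite strands. The start sites of the pair lie 21 bases apart in this table. Col4a1 (chr8:11312777-11313076, minus strand) and Col4a2 (chr8:11312555-11312854, plus strand) read as follows.
Col4a1: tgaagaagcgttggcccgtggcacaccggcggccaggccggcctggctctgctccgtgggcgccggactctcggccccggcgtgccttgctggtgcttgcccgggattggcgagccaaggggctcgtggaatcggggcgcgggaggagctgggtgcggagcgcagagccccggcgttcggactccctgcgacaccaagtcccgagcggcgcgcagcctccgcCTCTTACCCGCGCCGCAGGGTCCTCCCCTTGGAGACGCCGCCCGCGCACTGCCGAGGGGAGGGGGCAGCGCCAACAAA
Col4a2: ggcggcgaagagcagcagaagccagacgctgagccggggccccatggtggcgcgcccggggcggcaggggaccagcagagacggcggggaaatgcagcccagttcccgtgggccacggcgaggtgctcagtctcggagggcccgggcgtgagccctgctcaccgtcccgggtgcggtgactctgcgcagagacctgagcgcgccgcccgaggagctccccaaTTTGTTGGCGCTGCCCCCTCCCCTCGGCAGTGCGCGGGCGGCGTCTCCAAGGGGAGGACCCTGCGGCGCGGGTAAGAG

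In the other windows, capitals mark matches on either strand to the letters of 3 core promoter motifs. The first is TATAAA, the letters of the TATA box, the second is CCAAT and bears the name of its letters, and the third is GGGCGG and is called the GC box. Timp3 lies at chr10:86300162-86300461, Col3a1 at chr1:45311288-45311587, Col1a2 at chr6:4505368-4505667 and Col11a2 at chr17:34038888-34039187, all on the plus strand.
Timp3: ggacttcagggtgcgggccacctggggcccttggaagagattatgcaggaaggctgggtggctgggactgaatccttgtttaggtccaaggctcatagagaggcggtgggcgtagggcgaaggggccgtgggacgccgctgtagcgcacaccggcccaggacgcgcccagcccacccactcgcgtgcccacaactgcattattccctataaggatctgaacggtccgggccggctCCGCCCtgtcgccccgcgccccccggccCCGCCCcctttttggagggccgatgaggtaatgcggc
Col3a1: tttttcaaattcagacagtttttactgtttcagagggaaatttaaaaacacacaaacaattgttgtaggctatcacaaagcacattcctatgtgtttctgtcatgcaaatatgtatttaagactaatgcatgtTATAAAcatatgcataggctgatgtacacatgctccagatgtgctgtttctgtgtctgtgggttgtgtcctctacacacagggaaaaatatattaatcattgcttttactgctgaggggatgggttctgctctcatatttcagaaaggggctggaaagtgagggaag
Col1a2: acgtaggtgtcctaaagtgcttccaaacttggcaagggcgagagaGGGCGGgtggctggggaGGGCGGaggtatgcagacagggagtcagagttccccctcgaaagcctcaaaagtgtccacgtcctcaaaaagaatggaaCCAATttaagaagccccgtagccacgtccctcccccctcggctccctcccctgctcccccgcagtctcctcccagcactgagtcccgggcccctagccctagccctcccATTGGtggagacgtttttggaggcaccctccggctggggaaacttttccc
Col11a2: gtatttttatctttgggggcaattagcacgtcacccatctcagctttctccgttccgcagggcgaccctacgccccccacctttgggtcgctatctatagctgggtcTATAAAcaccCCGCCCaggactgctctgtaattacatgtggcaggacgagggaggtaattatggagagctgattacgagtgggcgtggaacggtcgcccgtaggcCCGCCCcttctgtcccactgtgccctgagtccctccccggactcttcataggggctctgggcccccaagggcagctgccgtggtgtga

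Col1a2 held 2 CCAAT boxes, facing opposite ways, and 2 GC boxes, Col3a1 held TATAAA alone, Timp3 held 2 GC boxes, and Col11a2 held TATAAA with 2 GC boxes. A GC box was found in 55.1% of the 49 windows of members, against 35.7% of all 32851 windows of the same length. For CCAAT the shares were 30.6% and 37.4%, and for TATAAA 14.3% and 13.6%. None of the 3 motifs contains another, and a match is a description of the window, not of a bound site.

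Of the 62 genes, 47 had at least 1 read in some library and 15 had none in any. All 15 undetected genes were collagens: Col2a1, Col9a1, Col9a2 and Col11a1 of cartilage, the network collagens Col4a6, Col8a1 and Col8a2, the collagen VI chains Col6a4, Col6a5 and Col6a6, and Col19a1, Col22a1, Col24a1, Col25a1 and Col26a1. At 10 or more reads, 34 members were detected in IPF-LC with isotype antibody and 19 after depletion, whereas LC had 39 and 13. A gene at 0 reads may still lie at up to 0.192, 0.192, 0.194 or 0.191 CPM, the level of 3 counts. Intermediate values were rare: only 6, 3, 2 and 4 members had between 1 and 9 reads, whereas 22, 40, 21 and 45 had none. The plot of detection by library shows this split.

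**Figure D1:**
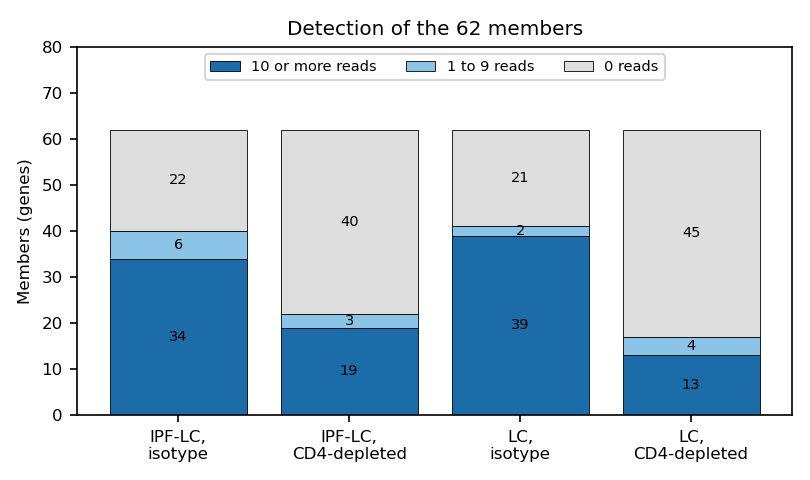
Number of the 62 members (y axis) with 10 or more reads, 1 to 9 reads or 0 reads in each of the 4 libraries (x axis). The detected segment is 34 and 39 genes high in the isotype libraries and 19 and 13 in the CD4-depleted ones, with few genes between 1 and 9 reads.

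Summed over all 62 members, the libraries held 4089, 639, 8545 and 475 reads. These are 0.0265% of reads (95% Wilson interval 0.0257 to 0.0273), 0.00394% (0.00365 to 0.00426), 0.0572% (0.0560 to 0.0584) and 0.00301% (0.00275 to 0.00330). Matrix transcripts were thus a trace in each library, and lower after CD4 depletion in each model: 6.38-fold in IPF-LC (log2 ratio -2.67, -2.80 to -2.55) and 18.2-fold in LC (-4.19, -4.33 to -4.06). Timp3, Col4a1 and Col4a2 held the most reads, and without them the ratios were -2.44 and -3.69. The 44 collagens alone summed to 2085, 288, 3190 and 269 reads. In such a bulk sample, fewer cells of a type and less RNA per cell cannot be told apart.

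Single members are described where their mean over the 4 libraries reached 1 CPM, which held for 33 of the 62 (18 collagens and 15 others), all of them with 10 or more reads in 1 or both isotype libraries. Because a gene can reach this mean through the library in which it is high, counts among the 33 describe them and are not support for a difference. In IPF-LC, 26 of the 31 with more than 3 reads in either library were 2-fold or more lower after depletion and 3 2-fold or more higher. Of all 12168 genes treated in the same way, 13.6% were 2-fold or more lower and 8.84% 2-fold or more higher. In LC, 29 of 33 were 2-fold or more lower and 1 2-fold or more higher, against 15.5% and 5.84% of 12218 genes. Their median log2 ratios were -3.31 in IPF-LC and -6.70 in LC, or -2.94 and -4.70 with undetected genes set at the floor of 3 counts, where the medians of all genes were -0.02 and 0.01. Of the 33, 26 had both depleted libraries below both isotype libraries and 0 had both above, against 23.5% and 21.4% of all 12231 genes. In both models 24 of the 33 were 2-fold or more lower, against 7.38% of these genes.

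The counts shifted by more than 1.5 times under some other rules. With a minimum of 10 CPM only 7 members remained, and all 7 were 2-fold or more lower after depletion in each model, against 6.02% of 8433 genes in IPF-LC and 5.85% in LC, with 0 higher against 4.08% and 2.59%. With the whole interval beyond 2-fold, 1 member was higher in IPF-LC (5.01% of genes) and 0 in LC (2.98%). With library totals as the only scaling, 0 were higher in LC (5.39%). Between models with isotype antibody, the minimum of 10 CPM left 5 lower and 0 higher (4.1% and 1.91% of genes), any count admitted 6 higher (10.7%) and deposited TPM gave 2 higher (4.7%). Between models after depletion, the minimum of 10 CPM left 0 lower and 2 higher (2.58% and 3.3% of 8427 genes), and TPM gave 5 lower (8.07%).

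**Figure D2:**
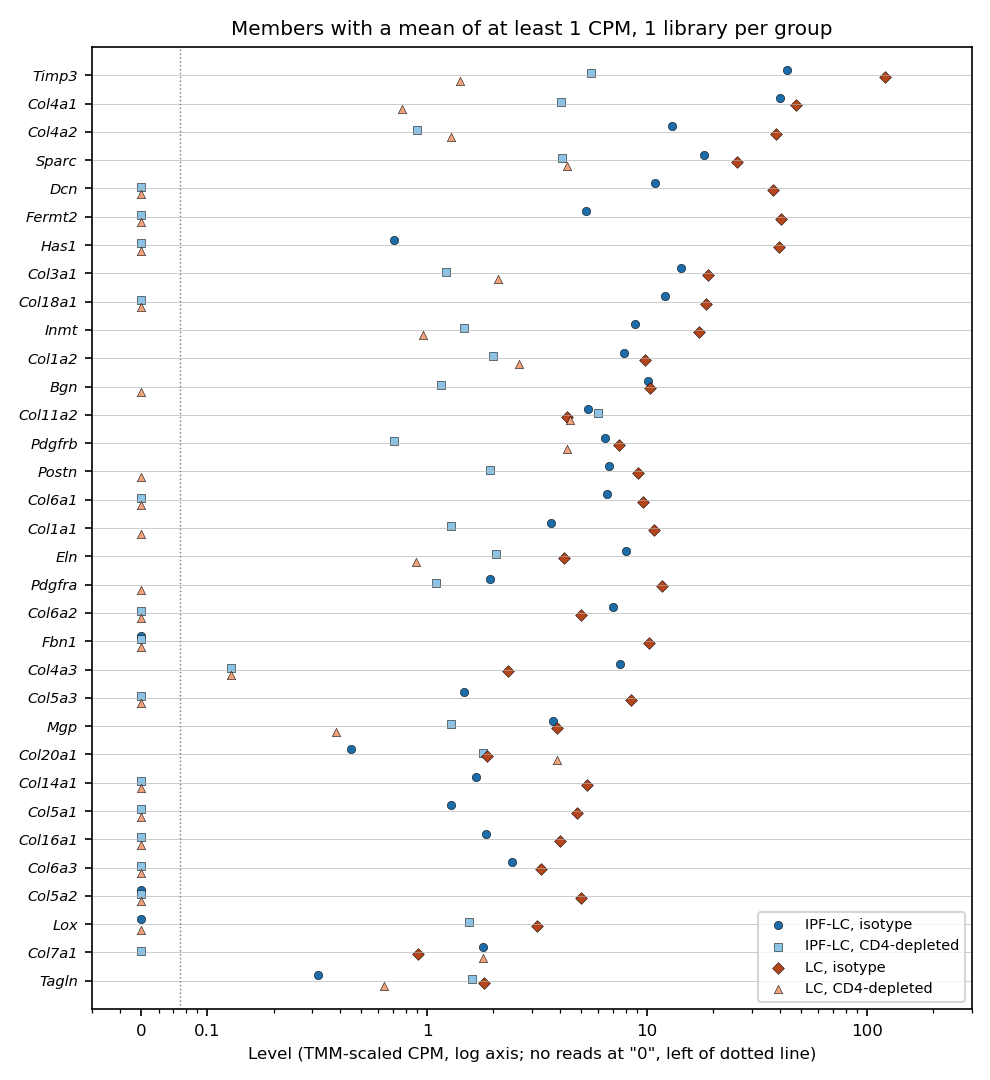
Levels in TMM-scaled CPM (x axis, log scale, with undetected values set apart at 0) of the 33 members whose mean reached 1 CPM (y axis), 1 symbol per library. The isotype libraries lie to the right of the depleted ones for 26 of them, Col11a2 has its 4 symbols together, and 11 genes among the 33 have both depleted symbols at 0 and both isotype symbols above it.

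Fibrillar collagens form the load-bearing fibrils. Of the 11 genes, 7 reached the mean of 1 CPM, and 5 of these were 2-fold or more lower after depletion in IPF-LC and 6 in LC. Col3a1, the chain of reticular collagen III, had 222, 19, 293 and 33 reads, with ratios of -3.51 (-4.30 to -2.87) in IPF-LC and -3.15 (-3.74 to -2.65) in LC. Both depleted libraries were below both isotype libraries, and the models were alike, with a difference between the ratios of -0.36 (-1.20 to 0.49). Col1a2, one chain of collagen I, had 122, 31, 151 and 41 reads, with ratios of -1.96 (-2.59 to -1.39) and -1.89 (-2.44 to -1.40). Its partner chain Col1a1 had 57, 20, 166 and 0 reads, a ratio of -1.48 (-2.32 to -0.75) in IPF-LC and an at least 56.1-fold lower level in LC. The genes of 1 protein thus parted in the CD4-depleted LC library, where Col1a2 kept 41 reads while Col1a1 had none.

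Collagen V seeds and limits fibrils. Its chain genes Col5a1 and Col5a3 had 20, 0, 74 and 0 and 23, 0, 131 and 0 reads, and Col5a2 was found in the isotype LC library alone, with 77 reads. Col11a2, a chain of the cartilage collagen XI, went against all of these. It had 84, 93, 67 and 70 reads, so that the groups overlapped, and ratios of 0.15 (-0.29 to 0.59) and 0.04 (-0.46 to 0.55). With 93 and 70 reads it was the member with the most reads in each depleted library. A change in Col11a2 larger than the bounds of these intervals would have been visible to counting, and smaller ones would not.

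Collagen IV builds the sheet of the basement membrane. The head-to-head pair shown above was, after Timp3, the most abundant of the set by reads. Col4a1 had 629, 63, 731 and 12 reads and Col4a2 had 202, 14, 593 and 20, so both depleted libraries lay far below both isotype libraries for each gene. The Col4a1 ratio was -3.31 (-3.71 to -2.94) in IPF-LC and -5.89 (-6.91 to -5.14) in LC, and that of Col4a2 -3.80 (-4.74 to -3.07) and -4.88 (-5.63 to -4.27). The pair did not keep a fixed proportion: IPF-LC over LC in the isotype libraries was -0.23 (-0.39 to -0.08) for Col4a1 and -1.57 (-1.81 to -1.34) for Col4a2, and the intervals do not overlap. Their exons share 22 bases in GENCODE M21, on opposite strands. Col4a3, a chain of alveolar and kidney basement membranes, had 117, 2, 36 and 2 reads and was at -5.55 (-8.93 to -3.98) and -3.89 (-7.29 to -2.23). Col4a4 and Col4a5 had 14 and 19 reads in the isotype IPF-LC library and fewer than 10 in every other library, and Col4a6 had none.

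Collagen VI forms beaded filaments around cells. Its 3 common chains were present in both isotype libraries and undetected in both depleted ones: Col6a1 had 103 and 148 reads in the isotype IPF-LC and LC libraries, Col6a2 109 and 77, and Col6a3 38 and 51. In IPF-LC Col6a1 was lower by a factor of at least 34.2 and, with an interval reaching to a log2 ratio of -5.33, was also undetected after depletion in LC. Col18a1, which carries the endostatin fragment and lies in vessel and epithelial basement membranes, showed the same, with 189, 0, 286 and 0 reads, at least 62.8-fold and 96.7-fold lower. Such bounds use the convention of 3 counts for a library at 0, and the counting interval reaches to smaller folds, for Col18a1 to log2 ratios of -5.66 and -6.29.

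Fibril-associated collagens decorate the fibril surface. Col14a1 and Col16a1 had 26 and 29 reads with isotype antibody in IPF-LC, 82 and 62 in LC, and 0 in both depleted libraries. Col20a1, a less studied member of this class, moved the other way. It had 7, 28, 29 and 61 reads, with ratios of 1.93 (0.78 to 3.44) in IPF-LC and 1.04 (0.39 to 1.74) in LC. It was the only one of the 33 genes 2-fold or more higher after depletion in both models, although the groups overlapped, since isotype LC had 1 read more than depleted IPF-LC. With library totals as the only scaling it was no longer 2-fold higher in LC. Col7a1, the collagen of anchoring fibrils of epithelia, had 28, 0, 14 and 28 reads and is taken up again below. Among the rarer collagens, Col13a1 and Col17a1, which span the cell membrane, were found in the isotype LC library alone, with 41 and 32 reads. Col23a1 had 0, 10, 20 and 0 reads and Col28a1 had 12 in the isotype IPF-LC library alone. Col10a1, Col12a1, Col15a1 and Col27a1 stayed below 10 reads in every library.

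Decorin, lumican and biglycan are small proteoglycans with leucine-rich repeats, and decorin and lumican are standard fibroblast markers. Dcn was abundant per unit of length, at 9.80 TPM (deposited values scaled for gene length and depth) in the isotype IPF-LC library and 35.69 TPM in isotype LC. It had 170, 0, 575 and 0 reads, lower after depletion by at least 56.5-fold in IPF-LC and 194-fold in LC. Lum had 39, 0, 22 and 0 reads, too few for the mean of 1 CPM. Bgn, which vessels and macrophages can also express, had 158, 18, 159 and 0 reads, with a ratio of -3.09 (-3.92 to -2.42) in IPF-LC and an at least 53.8-fold lower level in LC. The isotype libraries of the models were equal for Bgn within counting error, at -0.03 (-0.35 to 0.30).

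Elastic fibres consist of elastin on a scaffold of fibrillin and are crosslinked by lysyl oxidases. Eln, the gene of elastin, had 125, 32, 65 and 14 reads. The depleted libraries lay below both isotype libraries, at -1.95 (-2.57 to -1.39) in IPF-LC and -2.20 (-3.18 to -1.39) in LC. With isotype antibody Eln was also among the few members higher in IPF-LC than in LC, at 0.92 (0.48 to 1.38). After depletion it was at 1.17 (0.25 to 2.22), where 12 of the 19 members with more than 3 reads in either library were higher in IPF-LC. Fbn1, the gene of fibrillin, was found in the isotype LC library alone, with 158 reads. Lox had 0, 24, 49 and 0 reads, so that the models went opposite ways, and Loxl1 had 24, 0, 21 and 3.

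Timp3, an inhibitor of metalloproteinases that binds to the matrix, had 674, 87, 1868 and 22 reads. Its ratio was -2.94 (-3.29 to -2.63) in IPF-LC and -6.40 (-7.11 to -5.83) in LC, a difference of 3.45 (2.77 to 4.13) between the models by counting error. Its estimated counts were not whole, and in GENCODE M21 its exons overlap those of Syn3 on the opposite strand. Sparc, a collagen-binding glycoprotein of fibroblasts and endothelium, kept more of its level, with 284, 64, 395 and 68 reads and ratios of -2.14 (-2.56 to -1.75) and -2.55 (-2.95 to -2.18). For Sparc the difference between the models was 0.41 (-0.12 to 0.95). Postn, the gene of periostin and a product of activated fibroblasts, had 105, 30, 141 and 0 reads. Mgp, an inhibitor of calcification, is short and had only 58, 20, 60 and 6 reads, yet per length it was the highest of the set in the isotype IPF-LC library, where Mgp stood at 15.55 TPM, Inmt at 15.02 and Timp3 at 14.22.

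Has1 encodes a hyaluronan synthase. It had 11, 0, 615 and 0 reads, so that nearly all of its signal came from the isotype LC library, where it stood at 39.8 CPM against 0.704 in isotype IPF-LC. The growth factor receptors Pdgfra and Pdgfrb, which mark fibroblasts and pericytes, differed from each other. Pdgfra had 30, 17, 180 and 0 reads, with a ratio of -0.80 (-1.77 to 0.09) in IPF-LC whose interval includes 0, and was at least 60.9-fold lower in LC. Pdgfrb had 101, 11, 115 and 68 reads, with -3.14 (-4.24 to -2.29) in IPF-LC and only -0.77 (-1.23 to -0.33) in LC. The Pdgfrb difference between the models was -2.36 (-3.34 to -1.38), opposite in sign to that of Timp3. Inmt, a methyltransferase gene strongly expressed in lung fibroblasts, had 138, 23, 265 and 15 reads and was lower after depletion in both models.

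The contractile genes were nearly absent. Acta2, the smooth muscle actin that defines myofibroblasts, had 0, 0, 9 and 0 reads, so no library showed it at 10 reads. Tagln, another smooth muscle gene, had 5, 25, 28 and 10 reads. Fermt2, the integrin activator kindlin-2 of adherent cells, had 82, 0, 630 and 0 reads and was at least 27.3-fold and 213-fold lower after depletion. In all, 13 of the 31 members with 10 or more reads in both isotype libraries had 0 in both depleted libraries, against 2.51% of the 12062 genes that meet the first condition. These were Dcn, Lum, Has1, Fermt2, Col18a1, Col14a1, Col16a1, Col9a3, Col5a1, Col5a3, Col6a1, Col6a2 and Col6a3. This count was formed after the values had been seen. The 31 were picked through the isotype libraries, and the 12062 genes were not matched to them in abundance. The count therefore describes these members and is not support for a difference.

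**Figure D3:**
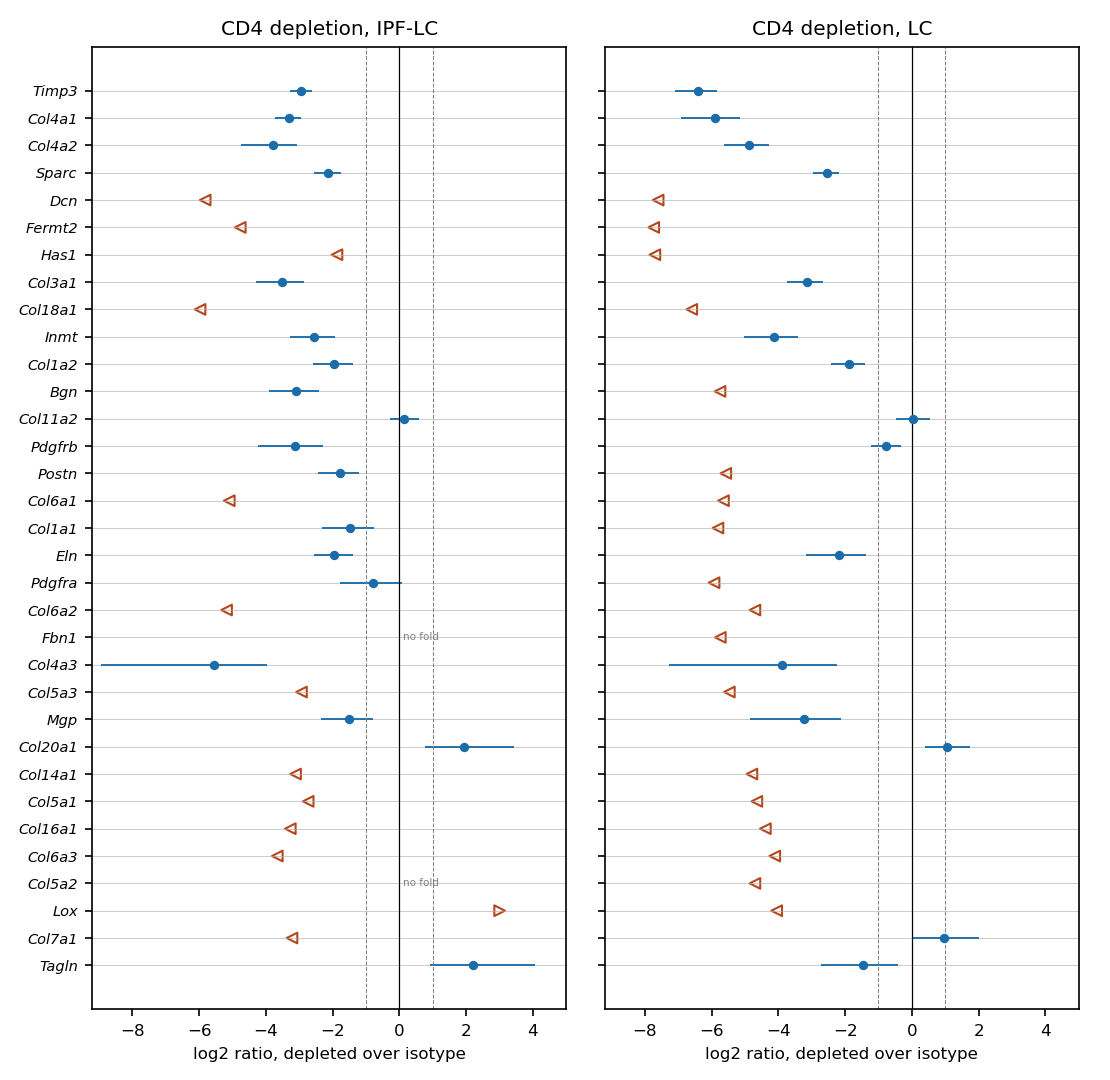
Log2 ratio of the CD4-depleted over the isotype library (x axis) in IPF-LC (left) and LC (right) for the 33 members (y axis). Filled points carry 95% counting intervals, open triangles are bounds for genes at 0 in 1 library, and dashed lines mark 2-fold. Most genes lie left of the lower line in both panels, with Col11a2 near 0 and Col20a1 to the right in both.

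Compared between models with isotype antibody, the set was lower in IPF-LC. Its summed level was 2.11-fold lower than in LC (-1.08, -1.13 to -1.03). This comparison uses the isotype libraries that also enter the depletion ratios. Of the 33 genes, 16 were 2-fold or more lower in IPF-LC and 1 2-fold or more higher, against 11.7% and 5.31% of 12214 genes. The gap was widest for Has1, at -5.76 (-6.83 to -4.97), and for Fbn1, Col5a2 and Lox, which had 0 reads in IPF-LC against 158, 77 and 49 in LC. Fermt2 (-2.95, -3.31 to -2.62), Pdgfra (-2.58, -3.21 to -2.04), Dcn (-1.77, -2.03 to -1.53) and Col1a1 (-1.55, -2.02 to -1.12) were among the others. Several of the core matrix genes differed little: Col3a1 was at -0.42 (-0.67 to -0.16), Col1a2 at -0.32 (-0.68 to 0.03) and Postn at -0.44 (-0.82 to -0.07). Col4a3 was the gene 2-fold or more higher in IPF-LC (1.67, 1.13 to 2.27). Its estimated counts were not whole, and in GENCODE M21 its exons share 563 bases with C430014B12Rik on the opposite strand. The 44 collagens together were 1.55-fold lower in IPF-LC, a smaller gap than that of the whole set.

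**Figure D4:**
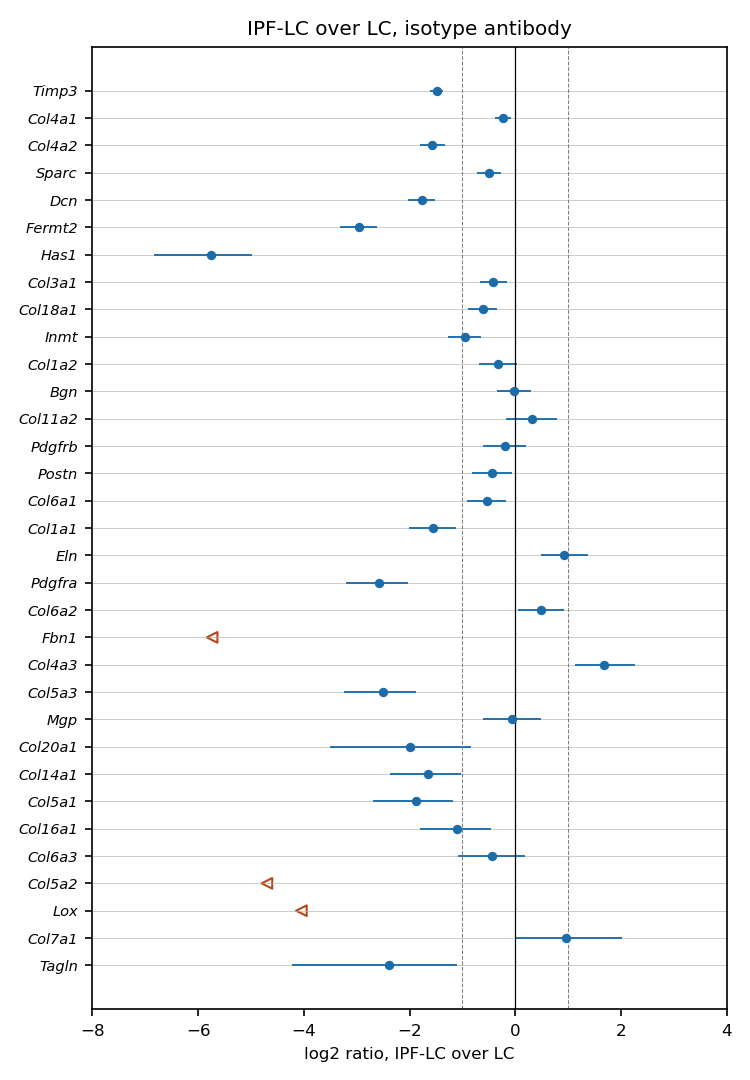
Log2 ratio of IPF-LC over LC with isotype antibody (x axis) for the 33 members (y axis), with 95% counting intervals or, as open triangles, bounds for genes undetected in IPF-LC. Points lie mostly between 0 and -3, Has1 lies furthest left among the genes detected in both, and Col4a3 lies to the right of the upper 2-fold line.

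After depletion the summed level was 1.35-fold higher in IPF-LC than in LC (0.44, 0.26 to 0.61), on 639 against 475 reads. Without Timp3, Col4a1 and Col4a2 this was 0.18 (-0.01 to 0.38). Only 19 of the 33 genes had more than 3 reads in either depleted library. Of these, 10 were 2-fold or more higher in IPF-LC and 3 2-fold or more lower, against 9.61% and 7.65% of 11974 genes. Col1a1, Postn, Pdgfra, Bgn and Lox had between 17 and 30 reads in IPF-LC and 0 in LC, whereas Pdgfrb (-2.57, -3.69 to -1.69), Col7a1 (0 against 28 reads) and Col20a1 (-1.10, -1.82 to -0.45) were lower in IPF-LC. Sparc (-0.08, -0.59 to 0.43), Col1a2 (-0.39, -1.12 to 0.31) and Col3a1 (-0.77, -1.68 to 0.07) did not differ detectably at this depth.

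The TPM make-up of the set shifted with the total. In the isotype IPF-LC library Mgp held 12.2%, Inmt 11.8% and Timp3 11.1% of the summed member TPM. In isotype LC, Timp3 (13.6%) and Dcn (12.8%) led, and Has1 held 10.9%. In the depleted libraries Dcn and Has1 were at 0, Sparc held 14.6% and 18.0%, and Col11a2 held 9.3% and 6.9% where it had held 1.1% and 0.6%. TPM depends on the gene length that the estimation assigns in each library, and for a few members that length varied widely. For Col4a1 it was 6615 bases in isotype IPF-LC and 828 bases in CD4-depleted LC, so that its TPM was higher in CD4-depleted LC (1.84) than in CD4-depleted IPF-LC (0.94) on 12 against 63 reads. For Col7a1 the assigned length was 814, 914 and 9198 bases in the 3 libraries where it was detected.

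The rest of the matrix pathway was read from lists of further genes. For comparison with the counts that follow, the shares of all genes were 13.6% lower and 8.84% higher after depletion in IPF-LC and 15.5% and 5.84% in LC. Collagen folding and export genes serve secreted proteins in general, and 13 of 17 reached 1 CPM. Of these, 6 were 2-fold or more lower after depletion in IPF-LC and 5 in LC, with 0 higher. The general chaperones P4hb (364, 361, 374 and 303 CPM) and Ppib (179, 175, 173 and 190.0 CPM) were level, while Serpinh1, the collagen-specific chaperone HSP47, was at -2.07 (-2.58 to -1.61) and -3.16 (-3.99 to -2.49). Serpinh1 was chosen after its values were seen. The genes of procollagen and fibril processing were mostly lower too. Of the measured genes, 5 of 6 in IPF-LC and 6 of 6 in LC were 2-fold or more lower. Pcolce was among them, with 95, 1, 76 and 0 reads. Among other matrix genes, 14 of 17 in IPF-LC and 15 of 18 in LC were 2-fold or more lower, and 2 and 0 as much higher. Thbs1 stood at 46.7, 11.9, 662 and 14.9 CPM and Fn1, the gene of fibronectin, at 170.3, 43.8, 234 and 8.17. Lamc1, a laminin chain, went the other way, at 12.8, 40.7, 15.9 and 28.6 CPM. Matrix-degrading enzymes and their inhibitors were 2-fold or more lower for 7 of 11 in IPF-LC and 10 of 11 in LC, and as much higher for 2 and 0, with Mmp12 of macrophages at 1527, 385, 967 and 0 reads.

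Receptors carry the contact of cells with collagen. Of 7 measured receptor genes, 2 were 2-fold or more lower after depletion in IPF-LC and 5 in LC, with 0 higher in either. Itgb1, the integrin beta chain shared by the collagen receptors, was high in each library and higher after depletion, at 479, 843, 628 and 843 CPM. Itga1, its collagen-binding partner chain on resident T cells, was at 23.2, 8.66, 25.6 and 1.40 CPM. Lair1, an inhibitory collagen receptor of leukocytes, had 151, 198, 205 and 87 reads.

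Markers of other cell types were set beside the members, since the sums of some of these lists, but not of all, moved with that of the set. The 14 fibroblast markers outside the set had 9, 5, 9 and 3 genes at 10 or more reads. Their sum was 2.58-fold lower after depletion in IPF-LC and 27.6-fold lower in LC. Meox2, Gli1 and Fap had no reads in any library, whereas Tcf21 had 19, 0, 44 and 0, Pi16 12, 0, 363 and 0, and Npnt 172, 117, 60 and 37. The 12 pericyte and smooth muscle markers summed to 27.3, 13.2, 24.5 and 16.4 CPM, with Rgs5 and Cnn1 at 0, and the 6 mesothelial markers to at most 1.98 CPM, with Upk3b and Wt1 at 0. The label of fibroblast genes therefore held for part of its markers only. In the CD4-depleted LC library Dcn, Lum, Col1a1, Pdgfra and Tcf21 were all at 0. Others kept reads there, with Pdgfrb and Sparc at 68 each, Col1a2 at 41, Npnt at 37 and Col3a1 at 33.

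The 12 endothelial markers summed to 317, 184, 408 and 172 CPM, a sum that Pecam1 dominates. Of these markers, 11 were 2-fold or more lower after depletion in each model, for example Cdh5 with 115, 22, 104 and 8 reads. The 15 macrophage and monocyte markers summed to 3447, 1148, 4629 and 201 CPM, the same order of libraries as the members' sums of 262, 41.0, 553 and 30.3 CPM. The fibroblast, endothelial and neutrophil sums had this order too, and those of the pericyte, mesothelial, epithelial and B cell lists did not. Neutrophil markers had 12.5, 4.62, 149 and 3.70 CPM. The isotype LC library, which held most of Has1, Fbn1 and Fermt2, was highest here, as it was for the fibroblast, endothelial, macrophage and epithelial sums. The 12 lung epithelial markers summed to 126, 96.2, 183 and 97.1 CPM, and the 8 B cell and plasma cell markers to 38.9, 22.3, 35.0 and 22.3. The part of any of these cell types in the member values was not tested.

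**Figure D5:**
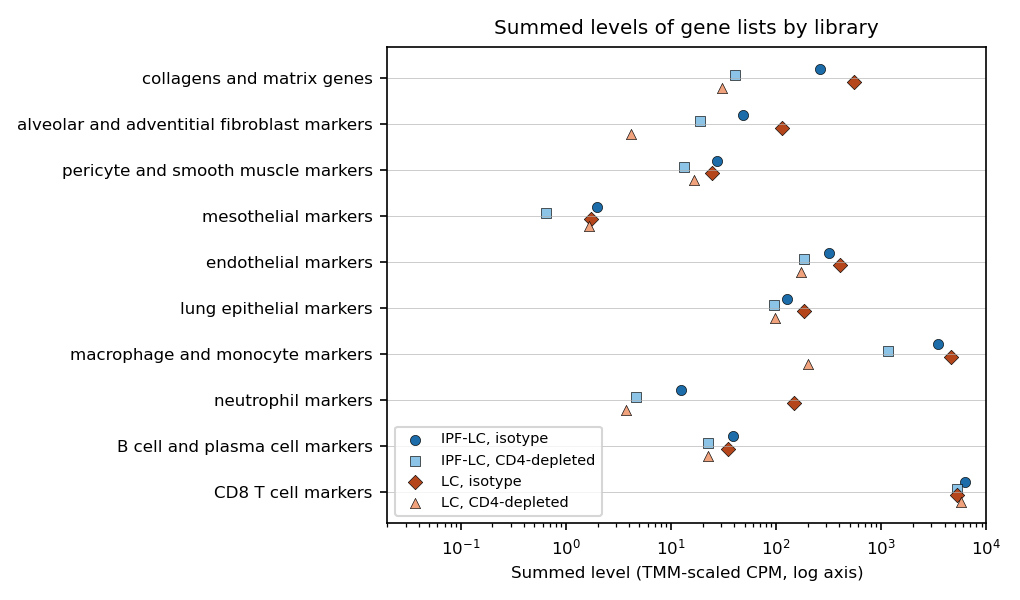
Summed level in TMM-scaled CPM (x axis, log scale) of the 62 members and of marker lists for other cell types (y axis), 1 symbol per library. The members run from 30.3 to 553 CPM with both depleted libraries on the left. All the marker lists shown except that of CD8 T cells also have both depleted libraries on the left, by gaps of unlike size. The CD8 T cell markers stay between 5255 and 6198 CPM.

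The only design with an error term was additive, with model and antibody as terms and 1 residual degree of freedom. It was fitted to all 4 libraries by edgeR quasi-likelihood. With 1 library per group, its error can only come from unlike depletion ratios in IPF-LC and LC. It therefore holds no replicate error between mice or sorts, and unlike ratios, as for Timp3 and Pdgfrb, count as noise. The p-values and calls of edgeR, DESeq2 and limma-voom below all carry this limit. The edgeR fit tested 34 members among 13050 genes. At a Benjamini-Hochberg adjusted p under 0.05 it called 0 higher and 0 lower with depletion, as for all genes (0 of 13050, or 0.0%). Of the 34, 22 had an unadjusted p under 0.05 and were lower and 0 were higher, against 6.04% and 3.3% of all genes, and the smallest adjusted p by edgeR was 0.366, shared by Dcn, Fermt2, Has1, Col18a1 and Col4a2. DESeq2 in the same design called 12 members lower and 0 higher, against 2.92% and 0.766% of genes, and limma-voom called 0 in either direction.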

How the data were processed

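RNA-seq libraries of sorted CD8+ lung T cells were made by column extraction, SMART-Seq v4 reverse transcription and a NEBNext kit (Ultra II), as the labels' protocols state. Whether strand was kept is not given in the sources used here. RSEM 1.3.3, STAR 2.7.11a, MultiQC 1.25.2 and fastp 0.23.4 are listed, with no role, in the submitters' processing notes, as is the build GRCm39. The deposited expected counts are estimated, unnormalised reads per gene, and between 5.49 and 5.89% were not whole. The deposited TPM values are scaled by the authors for gene length and depth and served for levels per length. Per the file headers, the tables also give gene lengths.

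Expected counts were rounded. Scaling used TMM (edgeR 4.0.16, factors 0.961 to 1.03), and ratios have exact conditional binomial 95% intervals. Called means at least 2-fold, where the mean reached 1 CPM and a compared library held more than 3 reads. The additive model used filterByExpr, with DESeq2 1.42.0 and limma 3.58.1 as alternatives. The scripts were tested on simulated data, with changes made alike in both models. At a simulated dispersion of 0.2, the additive model recovered 25% of 4-fold changes and 98% of 16-fold changes. The common dispersion fitted to the real libraries was 0.226, so the lack of edgeR calls says little about changes near 4-fold.

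All members are accounted for. Those whose mean reached 1 CPM were described singly, led by the 20 highest and by genes with opposite depletion intervals. Members and lists were chosen with earlier results of these data known. Overlapping exons (by name) came from GENCODE M21 on GRCm38. Figures were drawn with matplotlib 3.10.9.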

Additional observations from a re-analysis of the deposited data

Results flagged for a closer look

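Among the 33 members whose mean reached 1 CPM, the depletion ratios of 3 differed in direction: the ratios of the models pointed opposite ways, each with a counting interval on its own side of 0. The difference was not tested, since each ratio rests on 1 pair of libraries. Tagln, the smooth muscle gene with 5, 25, 28 and 10 reads, was at 2.22 (0.91 to 4.07) in IPF-LC and -1.46 (-2.71 to -0.42) in LC, a difference of 3.68 on the log2 scale. Its estimated counts were not whole, and in GENCODE M21 its exons overlap those of Pcsk7 on the opposite strand. Lox, with 0, 24, 49 and 0 reads, was at least 8.02-fold higher after depletion in IPF-LC and at least 16.6-fold lower in LC, a difference of at least 7.05 with undetected libraries at 3 counts. Col7a1, with 28, 0, 14 and 28 reads, was at least 9.31-fold lower in IPF-LC and at 0.95 (0.01 to 2.02) in LC, a difference of -4.17 on the same terms. Below that mean, Col23a1 had the same pattern on few reads, with 0, 10, 20 and 0.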

How the results depend on the processing

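Of the recomputed counts and sums, 28 shifted and 86 stayed within 1.5 times the reported count or within the reported counting interval. A minimum of 10 CPM left 7 members: 7 lower after depletion in IPF-LC and 7 in LC. For IPF-LC over LC, 5 were lower with isotype antibody and 2 higher among the depleted libraries. In each other direction there were 0. With any count admitted, 6 were higher in IPF-LC with isotype antibody. With library totals alone, 0 were higher after depletion in LC. With the whole interval required beyond 2-fold, 1 member was higher after depletion in IPF-LC and 0 in LC. On deposited TPM, the summed ratio for depletion in IPF-LC was -2.45. For IPF-LC over LC, 2 members were then higher with isotype antibody and 5 lower among the depleted libraries. Col4a1 turned to -0.90 for IPF-LC over LC after depletion, where its assigned length differs. Of the single-gene values followed, 24 others shifted out of the counting interval on TPM and 61 did not, and none shifted under the other settings run on them. For a ratio with 0 reads in 1 library that interval is open on 1 side, so staying within it says little.

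2 alternatives were chosen after seeing the data. Without the 19 members that share exon bases with another gene (13 of the 33), 18 were lower after depletion in LC and 0 were higher in either model. For IPF-LC over LC, 8 were then lower and 0 higher with isotype antibody, and 1 lower and 4 higher among the depleted libraries. The summed ratios were then -4.03 for depletion in LC and -1.15 for IPF-LC over LC with isotype antibody. Without Timp3, Col4a1 and Col4a2 they were -2.44, -3.69 and, for IPF-LC over LC after depletion, 0.18. DESeq2 called 12 members lower in the additive design, where edgeR called 0, and neither count rests on replicate error. The cause of these shifts was not tested, save that the filters and omissions leave fewer genes. The additive fits set depleted beside isotype libraries within each model, and the labels give no replicate numbers for any other pairing.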
